A study of Homo sapiens with 10 samples.

Results

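The polyamine and methionine cycle enzymes were described as a set of 8 genes, AMD1, MAT2A, ODC1, SRM, SMS, SAT1, OAZ1 and AHCY, out of 11963 genes measured by the arrays. The members were fixed by name, with earlier results of these data known, so counts of called members are no independent evidence. Each gene was represented by its lead probe set, selected on the highest mean level over the 10 arrays. All 8 genes reached a level of at least log2 6 on some array, as did 10911 genes in all, and 13 of the 22277 probe sets mapped to a member alone. A further probe set named SAT1 together with ZSWIM8 and was not used.

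RNA came from T47D-Y, a subline of the human luminal breast cancer line T47D that lacks the progesterone receptor (PR), and was hybridised to Affymetrix U133A 2.0 arrays. iEV cells carried an inducible empty vector and were PR null, iWT cells carried an inducible wild-type PR-B, and iKR cells carried PR-B with the K388R mutation, which removes the lysine that accepts SUMO, a small protein modifier. All cultures were serum starved and kept in G418 and hygromycin B. They received the dimerizer AP21967 (1 nM per the methods) or ethanol for 2 days and then the synthetic progestin R5020 (10 nM per the methods) or ethanol for 6 h. The iWT and iKR lines were measured in all 4 combinations of inducer and ligand, and the iEV line only on vehicle, with and without AP21967. Each of the 10 conditions was 1 array, and each vector stood for 1 line, so line and vector cannot be told apart. The design addressed how SUMOylation of PR changes the response of its target genes to progestin.

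Methionine adenosyltransferase joins methionine to ATP to make S-adenosylmethionine (SAM), the methyl donor of the cell. SAM then has a choice of routes: transfer of its methyl group, after which adenosylhomocysteinase cleaves the product, or decarboxylation, after which its aminopropyl group is added to putrescine to make spermidine and to spermidine to make spermine. Ornithine decarboxylase makes the putrescine, antizyme brings that enzyme to degradation, and spermidine/spermine acetyltransferase marks polyamines for breakdown or export. Polyamines bind nucleic acids and are needed for cell growth, and ornithine decarboxylase is a textbook target of MYC.

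In the cells given AP21967, R5020 was followed by higher mRNA of the enzymes at the meeting point of the pathways. AMD1, which encodes the SAM decarboxylase, rose 2.61-fold in iWT and 2.21-fold in iKR, and MAT2A, which encodes the catalytic subunit of the SAM synthetase of most tissues, rose 1.30-fold and 1.59-fold. The other 6 members did not pass the test for a response shared by the lines, so 2 of 8 were called higher and 0 lower. Of all 10911 genes, 5.23% were called higher and 6.25% lower in the same comparison. The median effect was 0.06 log2 units over the 8 members and 0.01 over all genes. Without AP21967 no member was called. SAT1 and ODC1 were higher in both receptor lines than in iEV on vehicle arrays. Over all genes 12.0% were called higher than in iEV in iWT and 12.9% in iKR.

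**Figure D1:**
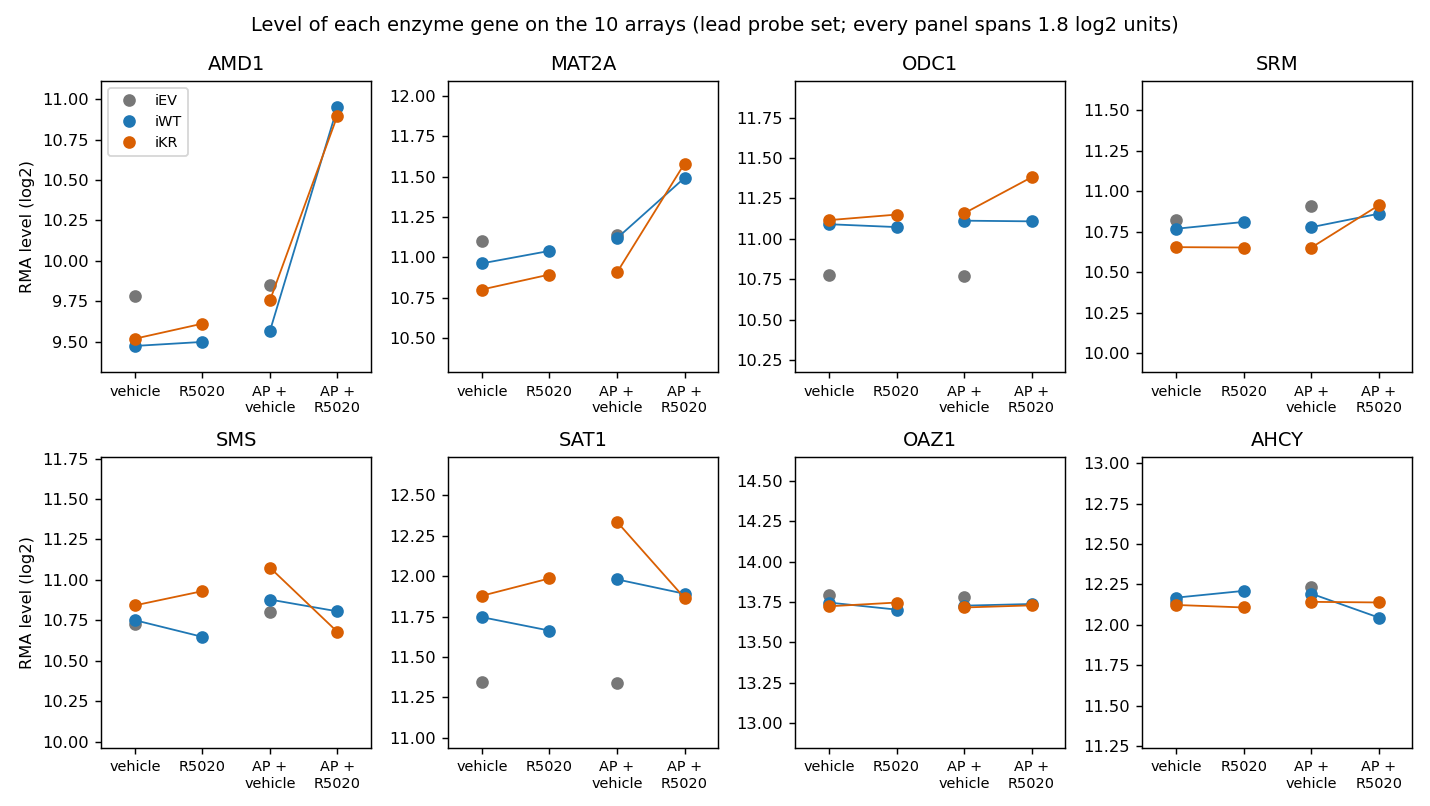
RMA level (log2 scale, vertical axis) of the lead probe set of each of the 8 enzyme genes on each array, in cells on vehicle or R5020, without or with AP21967 (AP); each point is 1 array and lines join the vehicle and R5020 arrays of a line. AMD1 stood at 10.95 and 10.90 on the arrays with both agents and between 9.47 and 9.85 on the others.

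AMD1 encodes S-adenosylmethionine decarboxylase, a rate-limiting enzyme of spermidine and spermine synthesis. Its lead probe set read 9.78 without and 9.85 with AP21967 in iEV. In iWT it read 9.47 on vehicle, 9.50 with R5020, 9.57 with AP21967 and 10.95 with both. In iKR the same 4 conditions gave 9.52, 9.61, 9.75 and 10.90. The arrays with both agents were thus the highest of the 10, and the other 8 arrays lay between 9.47 and 9.85, with AP21967-treated iEV at their upper end. The R5020 minus vehicle difference with AP21967 was 1.39 in iWT and 1.14 in iKR, and the effect shared by the lines was 1.26 ± 0.09 (SE, limma, adjusted p = 6.9e-05). It was the 46th highest of 10911 effects. The same difference on the second AMD1 probe set was 1.20 for iWT and 0.99 for iKR, with a shared effect of 1.09 ± 0.09 (adjusted p = 0.00033 when each probe set was a feature of its own).

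The AMD1 response also differed between the inducer states. Without AP21967 it was 0.02 in iWT and 0.09 in iKR, and the shared response was larger with AP21967 by 1.21 ± 0.12 (limma, adjusted p = 0.0017). This was the only member called among the inducer-dependent effects, of which 1.41% were called higher over all genes. These comparisons share the AP21967-treated arrays and are not independent of each other. The promoter of AMD1 is shown here because it is the gene with the largest response, as the RefSeq sequence (GRCh38.p14) of chr6:110874535-110874814, plus strand, from 250 bases before the start to 30 bases after it. Capitals mark TATAA, searched on both strands, which begins at position -29 from the start. RefSeq lists a further start 1 base away and a distant one with a window of its own.
AMD1: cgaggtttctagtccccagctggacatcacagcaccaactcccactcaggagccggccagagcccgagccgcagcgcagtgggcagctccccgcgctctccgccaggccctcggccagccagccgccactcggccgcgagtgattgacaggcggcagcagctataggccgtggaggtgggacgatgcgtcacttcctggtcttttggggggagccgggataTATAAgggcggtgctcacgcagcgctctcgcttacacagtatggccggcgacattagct

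MAT2A encodes the catalytic subunit of methionine adenosyltransferase II, which makes SAM outside the liver. In iEV its lead probe set read 11.10 without and 11.14 with AP21967. In iWT it read 10.96 on vehicle, 11.04 with R5020, 11.12 with AP21967 and 11.49 with both. In iKR it read 10.80, 10.89, 10.91 and 11.58 in the same order. The arrays with both agents were again the highest, by a smaller margin than for AMD1, and the vehicle arrays of iEV and of AP21967-treated iWT lay close together below them. R5020 minus vehicle with AP21967 was 0.37 in iWT and 0.67 in iKR, and the shared effect was 0.52 ± 0.09 (limma, adjusted p = 0.0076), the 269th highest of 10911. On the second MAT2A probe set the differences were 0.61 and 0.73, and its shared effect was 0.67 ± 0.08 (adjusted p = 0.0014 with each probe set as a feature). MAT2A was a receptor target that the study itself followed, so its call is no independent evidence. By RT-qPCR in stably expressing lines, the study reported that both receptors raised it equally. MAT2A served there as a control gene insensitive to receptor SUMOylation. By chromatin immunoprecipitation the study also reported progestin-dependent recruitment of PR to an enhancer near MAT2A, much alike for both receptors. That enhancer holds a progesterone response element, and it was not compared with the promoter windows searched here.

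For MAT2A the call on the inducer turned with the model and with the probe set. On the lead set the response was larger with AP21967 by 0.44 ± 0.13 (limma, adjusted p = 0.13), which missed the threshold, and by 0.47 ± 0.10 in the additive fit of all 10 arrays (adjusted p = 0.035), which passed it. On the second set the difference was 0.66 ± 0.11 (limma, adjusted p = 0.025). On that set AP21967 alone went with a lower level in the receptor lines, by -0.20 in iWT and -0.13 in iKR. In iEV the level was higher with it, by 0.14. The lead set gave 0.16, 0.11 and 0.03 in iWT, iKR and iEV. The promoter of MAT2A is shown beside that of AMD1 because these were the members called, as chr2:85538918-85539197, plus strand, of GRCh38.p14, over the same window. TATAA, in capitals, begins at position -32.
MAT2A: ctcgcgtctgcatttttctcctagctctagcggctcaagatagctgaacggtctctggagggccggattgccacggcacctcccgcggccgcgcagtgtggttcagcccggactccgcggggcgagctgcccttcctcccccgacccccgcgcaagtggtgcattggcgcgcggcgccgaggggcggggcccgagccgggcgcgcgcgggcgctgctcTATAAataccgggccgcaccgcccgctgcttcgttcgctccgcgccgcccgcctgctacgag

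ODC1 encodes ornithine decarboxylase, which makes putrescine and is the first committed step of the polyamine route. It read 10.78 and 10.77 in iEV without and with AP21967. In iWT all 4 arrays lay between 11.07 and 11.11. In iKR it read 11.12 on vehicle, 11.15 with R5020, 11.16 with AP21967 and 11.38 with both. The iEV arrays were the lowest, and the induced, R5020-treated iKR array was the highest. The share of all genes with both iEV arrays lowest was not counted. R5020 minus vehicle with AP21967 was -0.00 in iWT and 0.22 in iKR, and the shared effect of 0.11 ± 0.08 was not called (limma, adjusted p = 0.46, 95% interval -0.08 to 0.30).

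The aminopropyl transferases, which use the product of AMD1, were not called. SRM, spermidine synthase, lay between 10.65 and 10.91 over the 10 arrays, and R5020 minus vehicle with AP21967 was 0.08 in iWT and 0.26 in iKR (shared effect 0.17 ± 0.08, limma, adjusted p = 0.22, 95% interval -0.01 to 0.36). SMS, spermine synthase, read 10.88 on vehicle and 10.81 with R5020 in AP21967-treated iWT. In AP21967-treated iKR it read 11.08 on vehicle, its highest array, and 10.68 with R5020, below every vehicle array. The shared effect on SMS was -0.24 ± 0.10 (adjusted p = 0.17, 95% interval -0.46 to -0.01), which did not pass after adjustment over all genes.

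SAT1 encodes spermidine/spermine acetyltransferase, the enzyme that starts polyamine breakdown. Its lead probe set read 11.35 and 11.34 in iEV without and with AP21967. In iWT it read 11.75 on vehicle, 11.66 with R5020, 11.98 with AP21967 and 11.89 with both. In iKR it read 11.88, 11.99, 12.34 and 11.87 in the same order. The iEV arrays were again the lowest, and the highest was iKR with AP21967 alone. R5020 minus vehicle with AP21967 was -0.09 in iWT and -0.47 in iKR on the lead set, -0.08 and -0.25 on the second, and -0.04 and -0.16 on the third. The shared effect of -0.28 ± 0.10 was not called (limma, adjusted p = 0.12, 95% interval -0.52 to -0.04). The unadjusted p was under 0.05 for 4 members in this comparison, AMD1, MAT2A, SMS and SAT1.

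The remaining members moved little. OAZ1, the antizyme that inhibits ornithine decarboxylase and is itself regulated largely by translation, lay between 13.70 and 13.79 over all arrays on the lead set and between 12.91 and 13.04 on the other. Its R5020 minus vehicle difference with AP21967 was 0.01 in each line. AHCY, which clears the product of methyl transfer, lay between 12.04 and 12.23, and its lowest array was iWT with both agents. Its shared effect was -0.08 ± 0.08 (limma, adjusted p = 0.60, 95% interval -0.26 to 0.11).

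**Figure D2:**
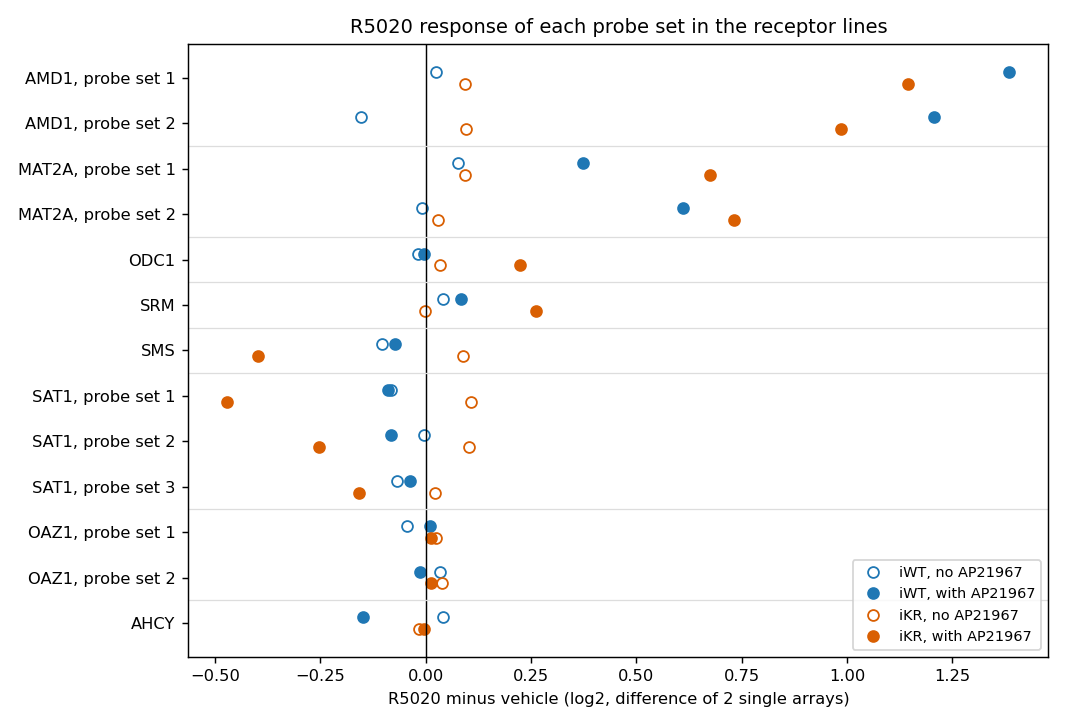
R5020 minus vehicle (log2, horizontal axis; each point is the difference of 2 single arrays, with no replicate) for each of the 13 probe sets in iWT and iKR, open without AP21967 and filled with it; probe set 1 is the lead. The filled points of both AMD1 and both MAT2A probe sets lie between 0.37 and 1.39, and the open points of all 8 lead sets between -0.10 and 0.11.

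Without AP21967 the question was whether R5020 moved these genes at the uninduced receptor level. The differences of the 8 lead probe sets ran from -0.10 to 0.08 in iWT and from -0.02 to 0.11 in iKR, and 0 members were called. Over all genes limma called 1 gene, FKBP5, or 0.00917%, while 431 genes had an unadjusted p under 0.05. The limma fit with an intensity trend in the prior also called 1, and both additive fits, and an adjusted p of 0.01, called 0. PGR mRNA was already high without the inducer, at 10.65 to 11.77 in iWT and iKR against 6.25 and 6.17 in iEV, so the arrays without AP21967 are not arrays without receptor mRNA. With AP21967, PGR read 11.34 on vehicle and 11.89 with R5020 in iWT, and 12.08 and 11.38 in iKR. Between the inducer states PGR differed by 0.22 in iWT and 1.43 in iKR on vehicle, and by 0.12 and -0.05 on the R5020 arrays. The part of receptor mRNA in the inducer-dependent response of AMD1 was not tested. Receptor protein was not measured on these arrays. FKBP5, a classic progestin-responsive gene, read 8.24 and 9.11 on vehicle and R5020 in uninduced iWT, 8.04 and 8.86 in uninduced iKR, 7.81 and 10.76 in induced iWT, and 7.88 and 10.92 in induced iKR. No enzyme was called on the uninduced arrays under any of these settings.

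AP21967 alone, in the lines kept on vehicle, was not followed by a called change of any member. Limma called 0 of 10911 genes (0.0%), with 981 at an unadjusted p under 0.05, among them AMD1, SMS and SAT1, and the fit with an intensity trend also called 0. With the inducer the lead set of SAT1 differed by -0.01 in iEV, 0.23 in iWT and 0.46 in iKR (shared effect 0.23 ± 0.08, adjusted p = 0.51). SMS differed by 0.07, 0.13 and 0.23 in the same lines. On these lead sets the differences were larger in the receptor lines than in iEV. In iEV, iWT and iKR the second SAT1 set gave 0.01, 0.19 and 0.35. The third gave 0.08, 0.05 and 0.25, so iWT was not above iEV on it. Each value is from 1 array per state, and the difference between lines was not tested.

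The lines themselves differed in 5 members on the vehicle arrays, which were compared in a fit with line and inducer. ODC1 was higher than in iEV by 0.33 ± 0.06 in iWT (limma, adjusted p = 0.0045) and by 0.36 ± 0.06 in iKR (adjusted p = 0.0027). SAT1 was higher by 0.52 ± 0.10 in iWT (adjusted p = 0.0083) and by 0.76 ± 0.10 in iKR (adjusted p = 0.0014). All 3 SAT1 probe sets were called in each line. The genes of putrescine synthesis and of polyamine acetylation were thus both higher in each receptor line than in the empty-vector line.

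AMD1, MAT2A and SRM were lower than in iEV where they were called. AMD1 was lower in iWT by -0.30 ± 0.06 (limma, adjusted p = 0.013), while its second probe set gave -0.21 ± 0.09 (adjusted p = 0.16), and the lead set gave -0.18 ± 0.06 in iKR (adjusted p = 0.079). MAT2A was lower in iKR by -0.27 ± 0.06 (adjusted p = 0.014) and gave -0.08 ± 0.06 in iWT. SRM was lower in iKR by -0.21 ± 0.06 (adjusted p = 0.031). SMS gave 0.19 ± 0.06 in iKR (adjusted p = 0.057), which missed the threshold but passed with an intensity trend in the prior (adjusted p = 0.013), with probe sets averaged (0.046) and with a mean of at least log2 7 (0.040). AMD1 in iKR also passed with the trend (adjusted p = 0.043). In iWT 2 members were called higher and 1 lower, against 12.0% and 11.8% of all genes. In iKR 2 were called higher and 2 lower, against 12.9% and 12.8%. No member was called between iKR and iWT, where 2 members had an unadjusted p under 0.05. Line differences of this kind were thus common over the array, and each vector was 1 line.

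**Figure D3:**
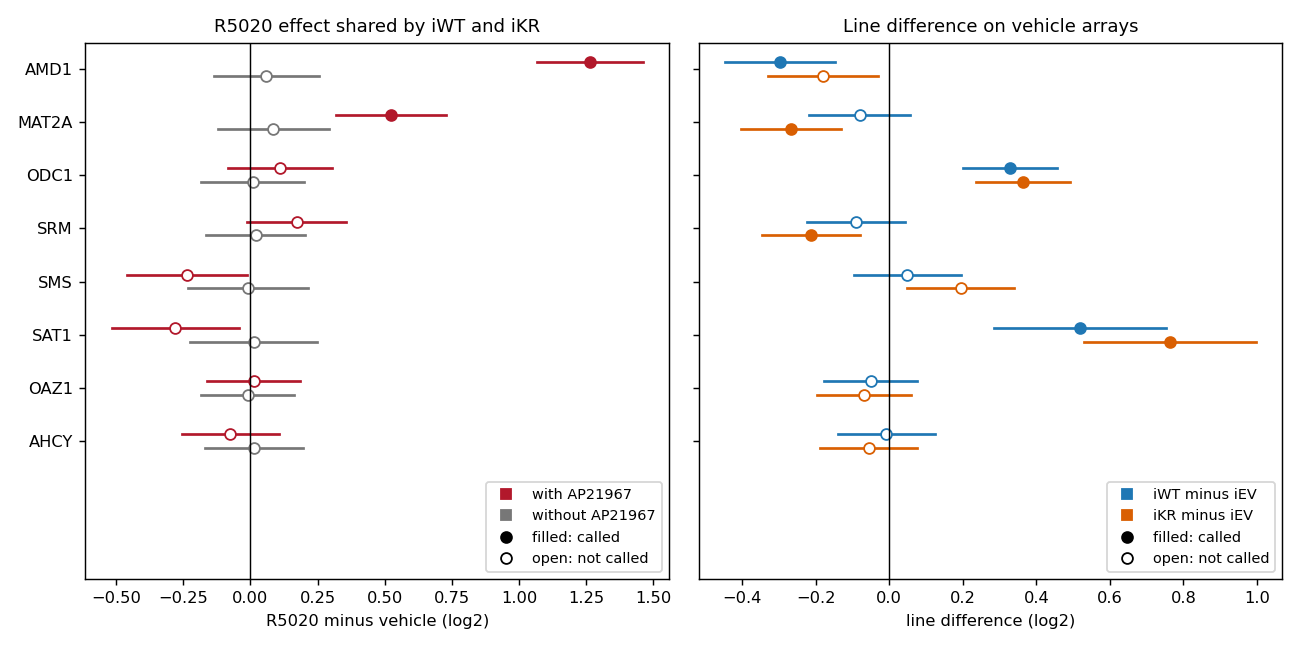
Left, the R5020 effect shared by iWT and iKR with and without AP21967; right, the difference of each receptor line from iEV on vehicle arrays. Points are limma estimates (log2), bars 95% intervals, and filled points passed an adjusted p of 0.05 over all genes. AMD1 and MAT2A stand apart on the left, at 1.26 and 0.52, and SAT1 and ODC1 are to the right of 0 in both lines on the right.

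The receptors were compared by single arrays, with no test. On the lead probe sets with AP21967, iWT had 1 member past a fold of 1.5 (0.585 log2 units), AMD1, against 1.59% of all genes higher. In iKR there were 2, AMD1 and MAT2A, against 3.02%. The second MAT2A probe set was past that fold in both lines, at 0.61 in iWT and 0.73 in iKR. Without AP21967 no member passed that fold in iWT (0.11% of all genes) or iKR (0.0825%). The response in iKR minus that in iWT was -0.38 for SAT1, -0.32 for SMS, 0.30 for MAT2A and -0.24 for AMD1, and no member reached 1.5 fold, against 2.5% of all genes. For MAT2A the second probe set gave 0.12, and for SAT1 the other sets gave -0.17 and -0.12, so the size of these differences moved with the probe set. In iKR the direction of SAT1 and SMS with R5020 was opposite to that with AP21967 alone, and the AP21967-treated vehicle array is common to both differences.

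The wider pathway was read from lists of the other genes. Of 44 other polyamine, methionine cycle and salvage genes listed, 36 were measured, 5 rose (13.9%) and 2 fell (5.56%) with R5020 in AP21967-treated cells, with a median effect of 0.02. Over all genes 5.23% rose and 6.25% fell in this comparison, and the shares of the lists below are read against these. Among 15 measured polyamine genes, SMOX, which oxidises spermine back to spermidine, rose by 0.72 ± 0.11 (limma, adjusted p = 0.0036), at 0.50 in iWT and 0.94 in iKR. A second SMOX probe set of lower level gave -0.33 and 0.08 and did not share the rise. SLC7A1, a transporter of arginine and other cationic amino acids, rose by 0.49 ± 0.08 (adjusted p = 0.0065), and its other 4 probe sets gave -0.01 to 0.31 in iWT and 0.01 to 0.57 in iKR. OAT, which interconverts ornithine and a derivative of glutamate, fell by 0.33 on the log2 scale (adjusted p = 0.036), and EIF5A2, a copy of the translation factor that carries the spermidine-derived residue hypusine, fell by 0.35 (adjusted p = 0.035). The other 11 measured polyamine genes were not called. The list median was -0.02.

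Among 15 other methionine cycle genes only GNMT, a glycine methyltransferase that consumes SAM, rose, by 0.47 ± 0.09 (limma, adjusted p = 0.013), with a list median of 0.02. MAT2B, the regulatory partner of MAT2A, gave -0.18 ± 0.08 (adjusted p = 0.16) and was named for its role, after its values were seen. In the salvage route, which returns the methylthioadenosine left by spermidine and spermine synthesis to methionine, 2 of 6 measured genes rose, against 5.23% of all genes: GOT1, an aspartate aminotransferase, by 0.75 ± 0.10 (adjusted p = 0.0025), and ENOPH1, an enolase-phosphatase of that route, by 0.29 ± 0.08 (adjusted p = 0.045). MTAP, which opens that route and was likewise named for its role, gave 0.07 ± 0.10 (adjusted p = 0.73). GOT1 also belongs to the malate-aspartate shuttle, so its place on the list is shared with another pathway. The response of GOT1 was larger with AP21967 than without it by 0.73 ± 0.15 (limma, adjusted p = 0.042). For GNMT that difference was 0.21 ± 0.13 (adjusted p = 0.52) and for ENOPH1 0.14 ± 0.11 (adjusted p = 0.63), and neither was called.

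Of 13 measured SAM-dependent methyltransferases, LCMT1, which methylates the phosphatase PP2A, rose by 0.56 ± 0.08 (limma, adjusted p = 0.0026), and DNMT3B, a DNA methyltransferase, fell by 0.62 on the log2 scale (adjusted p = 0.0020). The list median was 0.01. In the MYC network 2 of 7 measured genes rose, against 5.23% of all genes, MYC by 0.69 ± 0.08 (adjusted p = 0.0013) and MXD1, which encodes a MAX partner that opposes MYC, by 0.37 ± 0.08 (adjusted p = 0.018). MYC read 7.34 on vehicle and 7.96 with R5020 in induced iWT, and 7.25 and 8.01 in induced iKR. Of the called genes in these lists, SMOX, GOT1, LCMT1 and MYC were also called higher for the dependence on the inducer, against 1.41% of all genes. SLC7A1, OAT, EIF5A2, GNMT, ENOPH1, DNMT3B and MXD1 were not called for it. For the R5020 effect with AP21967 in the same arrays, AMD1 and MAT2A were called, and ODC1, SRM, SMS, SAT1, OAZ1 and AHCY were not. Any link of MYC with the enzymes was not tested.

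**Figure D4:**
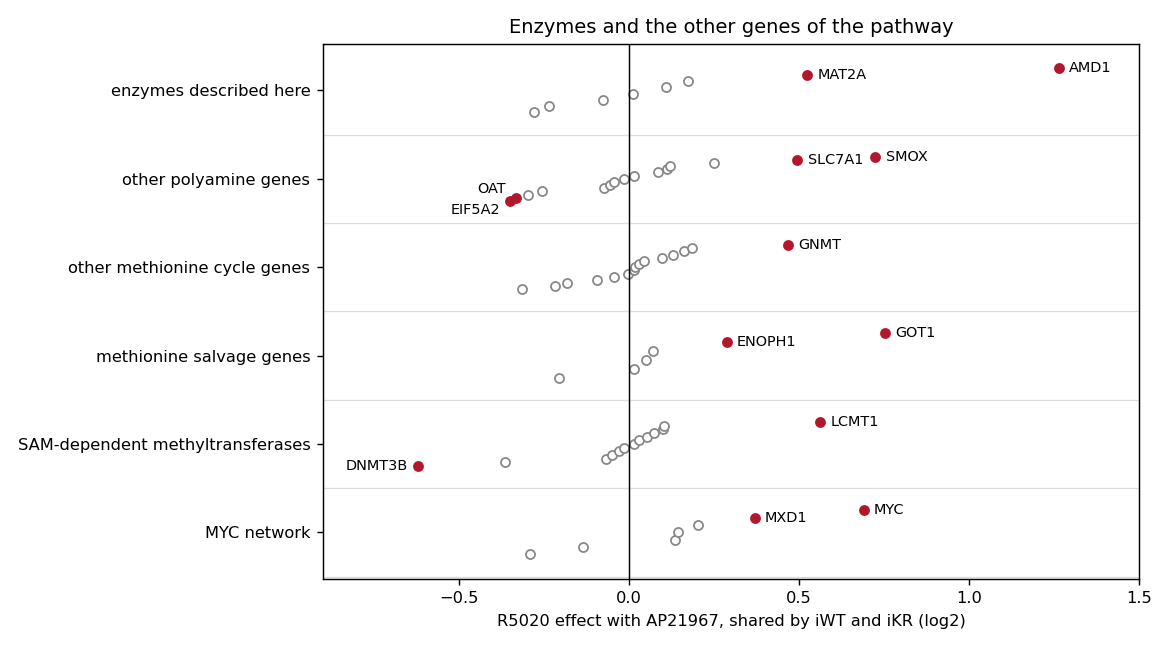
R5020 effect with AP21967 shared by iWT and iKR (log2, horizontal axis) for the 8 enzymes and the measured genes of 5 other lists; each point is 1 gene, vertical position within a list is by rank, and filled, named points passed an adjusted p of 0.05 over all genes. AMD1, at 1.26, is farthest to the right, and DNMT3B, at -0.62, farthest to the left.

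The promoters of SRM and ODC1 are shown because they were the windows of members with the E-box CACGTG, the palindromic motif that MYC and its partners bind. It was present in 2 of 13 member windows and in 7.3% of all 35116 RefSeq promoter windows, each of 300 bases. For SRM the printed stretch is chr1:11059989-11060268, minus strand, with the E-box in capitals at position -199. For ODC1 it is the window of the start at chr2:10447983-10448262, minus strand, with E-boxes at positions -29 and 5.
SRM: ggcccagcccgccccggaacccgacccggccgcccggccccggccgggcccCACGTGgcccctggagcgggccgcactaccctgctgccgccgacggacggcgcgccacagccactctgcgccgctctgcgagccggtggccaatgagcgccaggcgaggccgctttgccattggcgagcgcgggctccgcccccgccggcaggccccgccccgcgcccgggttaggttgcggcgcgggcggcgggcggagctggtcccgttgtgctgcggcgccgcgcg
ODC1: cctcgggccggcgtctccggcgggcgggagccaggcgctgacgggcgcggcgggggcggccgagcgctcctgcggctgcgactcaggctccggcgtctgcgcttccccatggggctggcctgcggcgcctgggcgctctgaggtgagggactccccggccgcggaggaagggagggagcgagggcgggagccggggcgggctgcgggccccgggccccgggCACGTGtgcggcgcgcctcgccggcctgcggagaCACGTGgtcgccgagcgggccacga

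The other RefSeq start of ODC1, at chr2:10448298-10448577, minus strand, is shown beside AMD1 and MAT2A because it has TATAA at position -32 as well. Any link of this motif with the R5020 response was not tested. TATAA was chosen for a search after these sequences had been read. On either strand it was in 6 of 13 member windows and in 20.4% of all windows. The 6 include the windows of neighbouring AMD1 starts, which hold the same site. In AHCY and OAZ1 the motif began at positions -209 and 6. The hexamer AGAACA, part of the hormone response element of PR and related receptors, was searched on both strands (as TGTTCT on the other) and was in none of the 13 member windows and in 14.8% of all. Its absence says only that these letters are not in these windows.
ODC1: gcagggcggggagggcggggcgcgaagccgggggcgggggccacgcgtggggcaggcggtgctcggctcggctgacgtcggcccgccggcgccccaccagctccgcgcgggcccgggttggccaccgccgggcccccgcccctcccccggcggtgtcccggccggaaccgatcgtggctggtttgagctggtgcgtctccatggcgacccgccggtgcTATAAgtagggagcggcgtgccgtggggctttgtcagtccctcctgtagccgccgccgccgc

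The genes whose level was most like that of AMD1 over the 10 arrays were F3, which encodes tissue factor (Pearson r = 0.99), PPM1H, a protein phosphatase (0.99), and KCNG1, a potassium channel subunit (0.99). Those most like MAT2A were DDIT4, a stress-induced inhibitor of mTORC1 (0.98), KIAA0232 (0.98) and ADO, a thiol dioxygenase (0.97). AMD1 and MAT2A correlated with each other at 0.91, and AMD1 with ODC1 at 0.36, SRM at 0.60 and SAT1 at 0.06. These are descriptions over 10 arrays that share lines and treatments, and the arrays with both agents weigh heavily in them.

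The labelled cell type was checked against its markers. All 9 luminal markers were measured, with a mean level between 12.75 and 13.35 over the arrays, and 3 of them fell with R5020 in AP21967-treated cells: GATA3 by 0.39, ESR1 by 0.79 and FOXA1 by 1.01 on the log2 scale. The other GATA3 probe sets gave -0.49 and -0.63 in iWT and -1.1 and -0.88 in iKR, where the lead set gave -0.31 and -0.46 in iWT and iKR. The other 8 ESR1 probe sets lay between -0.20 and 0.20 in iWT and between -0.30 and 0.17 in iKR. Of the basal, fibroblast, and leukocyte and endothelial markers, 4 of 6, 4 of 6 and 4 of 7 were measured and 0 were called. Mean levels were 6.95 to 7.10, 7.03 to 7.15 and 6.75 to 6.82. These means cover the 4, 6 and 5 markers with a probe set, including those below the level filter. COL1A1, a fibroblast marker, was the highest of these markers, with a mean of 9.70. The part of the luminal markers in the enzyme results was not tested. In RNA from whole cultures, fewer cells with a transcript and less of it per cell cannot be told apart.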

How the data were processed

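The authors processed the raw files of 10 Affymetrix U133A 2.0 arrays in R with the affy package by Robust Multi-array Average (RMA), per the study's methods, and the deposited values used here are log2 probe set signals (array medians 8.12 to 8.15). Package versions are not given in the sources used here. Per the labels RNA was extracted with Trizol, and the methods name a kit. The doses printed are those of the methods; the labels' notation, read literally, is 10 times higher.

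Probe sets were named through GEO's platform annotation, updated through gene identifiers: 19070 had 1 gene, 1043 several and 2164 none listed. Each gene took the probe set of highest mean, and genes with no array at log2 6 or above were left out. Differences were tested with limma 3.58.1 in R 4.3.3 (lmFit and eBayes) with Benjamini-Hochberg adjustment over 10911 genes and a threshold of 0.05. The R5020 model was fitted to the 8 arrays of iWT and iKR. It had an intercept per combination of line and inducer, and R5020 effects shared by the lines (2 residual degrees of freedom, 8.83 with the prior), so that the lines served as repeats and any response of 1 receptor alone counted as error. The line model used 6 vehicle arrays with line and inducer (2 residual, 7.58 with the prior). In the R5020 model the p-values rest on how far the 2 lines disagreed in their response. In the line model they rest on how far the lines disagreed in their inducer difference. The prior supplied 6.83 and 5.58 of the degrees of freedom. With 1 array per condition, the spread between repeat arrays or cultures was not measured, and the number of arrays limits the precision. The code was tested on simulated data.

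Genes were named by rule: all members, the genes called in each list, and the 3 genes most correlated with each of the 2 members of largest effect. MAT2B and MTAP fall outside it and were named after their values were seen. The members and lists were chosen with earlier results of these data known. Promoter sequences are from RefSeq (GRCh38.p14). Alternatives varied the probe set rule, level filter, normalization, prior, model and thresholds; Python 3.11.15 with pandas 2.3.3 was used for tables.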

Additional observations from a re-analysis of the deposited data

Results flagged for a closer look

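For 6 members the R5020 minus vehicle difference had opposite signs in iWT and iKR. Each value is a difference of single arrays, no member among them was called, and the difference between the lines was not tested. With AP21967, ODC1 differed by -0.00408 log2 units in iWT and 0.223 in iKR. Without AP21967, the iWT and iKR differences were 0.0418 and -0.0155 for AHCY, -0.0176 and 0.0343 for ODC1, 0.0419 and -0.0022 for SRM, -0.103 and 0.088 for SMS, -0.0831 and 0.107 for SAT1, and -0.0436 and 0.0231 for OAZ1.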

How the results depend on the processing

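No paired analysis was possible because every label carries replicate 1 and the numbers pair nothing beyond the line and inducer state already in the model; with 1 array per condition no replicate could be left out. AMD1 was called under every alternative for the R5020 effect with AP21967 (1.09 to 1.30 on the log2 scale, adjusted p 6.6e-06 to 0.00052), and MAT2A under every one in which it was measured (0.50 to 0.67, adjusted p 0.0014 to 0.0087). Without probe sets ending in _x_at or _s_at only 3 members were measured. Then the R5020 effect with AP21967 had 804 genes and 1 member called (main 1253 and 2), iWT minus iEV 1518 and 1 (2602 and 3), iKR minus iEV 1623 and 2 (2809 and 4), and the genes past 1.5 fold were 186 in iWT (main 285) and 425 in iKR (675), where 1 member passed. At an adjusted p of 0.01 the genes called were 502 for the R5020 effect with AP21967, 0 without it (main 1), 70 for its dependence on the inducer (main 229), 1406 for iWT minus iEV and 1567 for iKR minus iEV, with 2 members. At 2.0 fold, 67 genes passed in iWT, 162 in iKR with 1 member, and 28 for the receptor difference (main 273). The dependence on the inducer had 351 genes with an intensity trend in the prior and 528 with 2 members in the additive fit of all 10 arrays, where MAT2A gave 0.47 (adjusted p = 0.035). Without AP21967, 0 genes were called in the additive fits of 8 and 10 arrays. OAZ1, not called anywhere, turned sign: with AP21967 to -0.011 under median centring and -0.0011 on its second probe set, and for the inducer dependence to -0.0145, -0.0375 and, with probe sets averaged, -0.0078. The use of each probe set as a feature was chosen after seeing the data. For single members 243 values kept direction and side, 6 became called (MAT2A for the inducer dependence 2 times, and SMS 3 times and AMD1 1 time for iKR minus iEV), 2 lost the call (both AMD1 in iWT minus iEV, -0.21) and 5 reversed.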
